A study of Gallus gallus with 6 samples.

Results

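The interferon-stimulated genes OASL, CMPK2, RSAD2, IFIT5, EIF2AK2, IFIH1, DHX58, IRF1 and IRF7 were examined in the abdominal fat of broiler chickens kept at a neutral or a hot room temperature. The members were chosen by gene symbol, with earlier results of these data known. All 9 of the 9 symbols were among the 15491 genes listed with read counts. All 9 passed the filter on low counts, as did 14743 genes in all. Both groups were male chickens of the Ross meat strain, the thermoneutral one held at 22 °C and the heat stress one at 32 °C, with 50% humidity in each, from day 21 to day 35 of age. Both groups had moved to single cages on day 14, had light for 24 h a day and ate the same diet. Each group gave 3 poly(A) RNA-seq libraries, and no genetic change or drug was involved.

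Interferons are secreted proteins that cells release on sensing viral nucleic acid. They bind surface receptors, activate Janus kinases and STAT transcription factors, and so switch on a large set of antiviral genes in the same and in neighbouring cells. Chickens lack the RNA sensor RIG-I, the transcription factor IRF3 and the ubiquitin-like protein ISG15 that mammals use in this system, and rely on IFIH1 (MDA5) and IRF7 instead. Fat holds adipocytes, stromal cells, vessels and resident immune cells, and all of them can express these genes.

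OASL, CMPK2 and IFIT5, all effectors made in response to interferon, were higher in every heat stress library than in any thermoneutral library. Their means differed by 2.43-fold, 1.83-fold and 1.80-fold. Of all genes tested, 12.6% were higher and 12.4% lower in heat stress without overlap between groups. EIF2AK2, IFIH1 and DHX58 differed by 1.12-fold to 1.20-fold with overlapping groups, and RSAD2, IRF1 and IRF7 differed by 0.93-fold to 1.01-fold. In edgeR's quasi-likelihood test 0 of the 9 passed a false discovery rate (FDR) of 0.05 over all genes tested, 3 had an unadjusted p under 0.05, and DESeq2 called 3, the same genes, at an adjusted p under 0.05. Over all genes, edgeR called 0.115% higher and 0.0610% lower at that FDR, 9.56% were higher at an unadjusted p under 0.05, and DESeq2 called 5.08% higher and 4.09% lower. The median log2 fold change of the 9 was 0.23, against -0.0045 over all genes tested. Of the 9, 8 were above 0, against 49.4% of all genes with 50.6% below 0. RSAD2 (0.02 ± 0.45, SE) and IRF7 (0.01 ± 0.14), both among the 8, were near 0 and changed sign in some alternative fits. As the members were chosen with earlier results of these data known, the comparisons with all genes are descriptions only. Levels are counts per 1e+06 counts of a library's TMM-scaled total (CPM) unless another scale is named, and fold changes are heat stress over thermoneutral.

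Each thermoneutral library held 30673333 to 35836632 counts and each heat stress library 38336086 to 45163458, so every heat stress library was the deeper, and the part of depth in the results was not tested. All 8 adipocyte markers sought, among them ADIPOQ, FABP4 and PLIN1, were listed, with FABP4 at 24338 to 32210.2 TPM (the authors' transcript abundance, scaled for gene length and depth). Nothing in the labels says that each library is 1 chicken, so the p-values speak only to differences among these 6 libraries, which may be technical. In bulk tissue, fewer cells of a type and less RNA per cell cannot be told apart.

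OASL (gene ID 395908), the chicken's 2'-5'-oligoadenylate synthetase, makes the second messenger that activates RNase L on binding double-stranded RNA. It was at 10.4, 10 and 13.9 CPM in thermoneutral 1, 2 and 3, and at 28.8, 35.3 and 19.3 CPM in heat stress 1, 2 and 3. The groups did not overlap, and the lowest heat stress library was 1.39 times the highest thermoneutral one. OASL averaged 11.4 ± 2.16 and 27.8 ± 8.04 CPM (SD, n = 3 each). Its log2 fold change of 1.28 ± 0.24 (SE), with a 95% interval from 0.70 to 1.86, was exceeded by 1.74% of genes tested. Its FDR in edgeR was 0.0675, and its adjusted p in DESeq2 was 7.56e-05. The counts behind it were 312 to 490 and 736 to 1623. In the GRCg7b annotation OASL overlaps LOC101747452, which had 5 to 18 counts in these libraries, and no source used here says whether strand was used in counting.

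CMPK2 (gene ID 421921) is a nucleoside monophosphate kinase of mitochondria that is induced by interferon in mammals. It was at 10.8, 8.60 and 9.47 CPM in thermoneutral 1, 2 and 3, and at 19.4, 21.5 and 11.9 CPM in heat stress 1, 2 and 3. Heat stress 3 stood just above the thermoneutral range, at 1.10 times its highest library, while the other two heat stress libraries were well above it. For CMPK2 the log2 fold change was 0.87 ± 0.23, with an edgeR FDR of 0.118 and a DESeq2 adjusted p of 0.0124.

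RSAD2 (gene ID 428650), which encodes viperin, a radical SAM enzyme that makes a chain-terminating nucleotide, is the direct neighbour of CMPK2 in the GRCg7b annotation. RSAD2 was near the limit of counting, with 29, 32 and 20 counts in thermoneutral 1, 2 and 3 and 21, 59 and 31 counts in heat stress 1, 2 and 3. Those counts were 0.967, 1.02 and 0.569 CPM, and 0.483, 1.28 and 0.813 CPM, so both the lowest and the highest library were heat-stressed. Its fitted log2 fold change was 0.02 ± 0.45, and its interval from -1.05 to 1.08 includes the size of the CMPK2 difference. Per unit of length, CMPK2 was 2.76 to 5.41 times RSAD2 in thermoneutral libraries and 13.2, 5.45 and 4.80 times RSAD2 in heat stress 1, 2 and 3 (TPM ratios), so the ratio overlapped between groups.

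IFIT5 (gene ID 423790), a tetratricopeptide protein that binds viral RNA ends, is the single IFIT gene known in chickens. It was at 25.1, 17.4 and 20.5 CPM in thermoneutral 1, 2 and 3, and at 34.9, 52.2 and 26.3 CPM in heat stress 1, 2 and 3. Thermoneutral 1 and heat stress 3 nearly met, with a ratio of 1.05 between them. Means were 21.0 ± 3.92 and 37.8 ± 13.2 CPM. For IFIT5 the log2 fold change was 0.85 ± 0.26 (95% interval 0.23 to 1.47), with an edgeR FDR of 0.159 and a DESeq2 adjusted p of 0.0289. Without heat stress 2 it was 0.55.

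EIF2AK2 (gene ID 395147) encodes PKR, the kinase that halts translation by phosphorylating eIF2-alpha when it binds double-stranded RNA. It was at 31.6, 34.2 and 27.6 CPM in thermoneutral fat and at 36.4, 35.4 and 33.2 CPM in heat-stressed fat. Heat stress 3 lay inside the thermoneutral range and the other two heat stress libraries lay above it. Its log2 fold change was 0.17 ± 0.11, with an interval from -0.09 to 0.42 and an edgeR FDR of 0.454. The interval leaves out a change of the size seen for OASL.

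**Figure D1:**
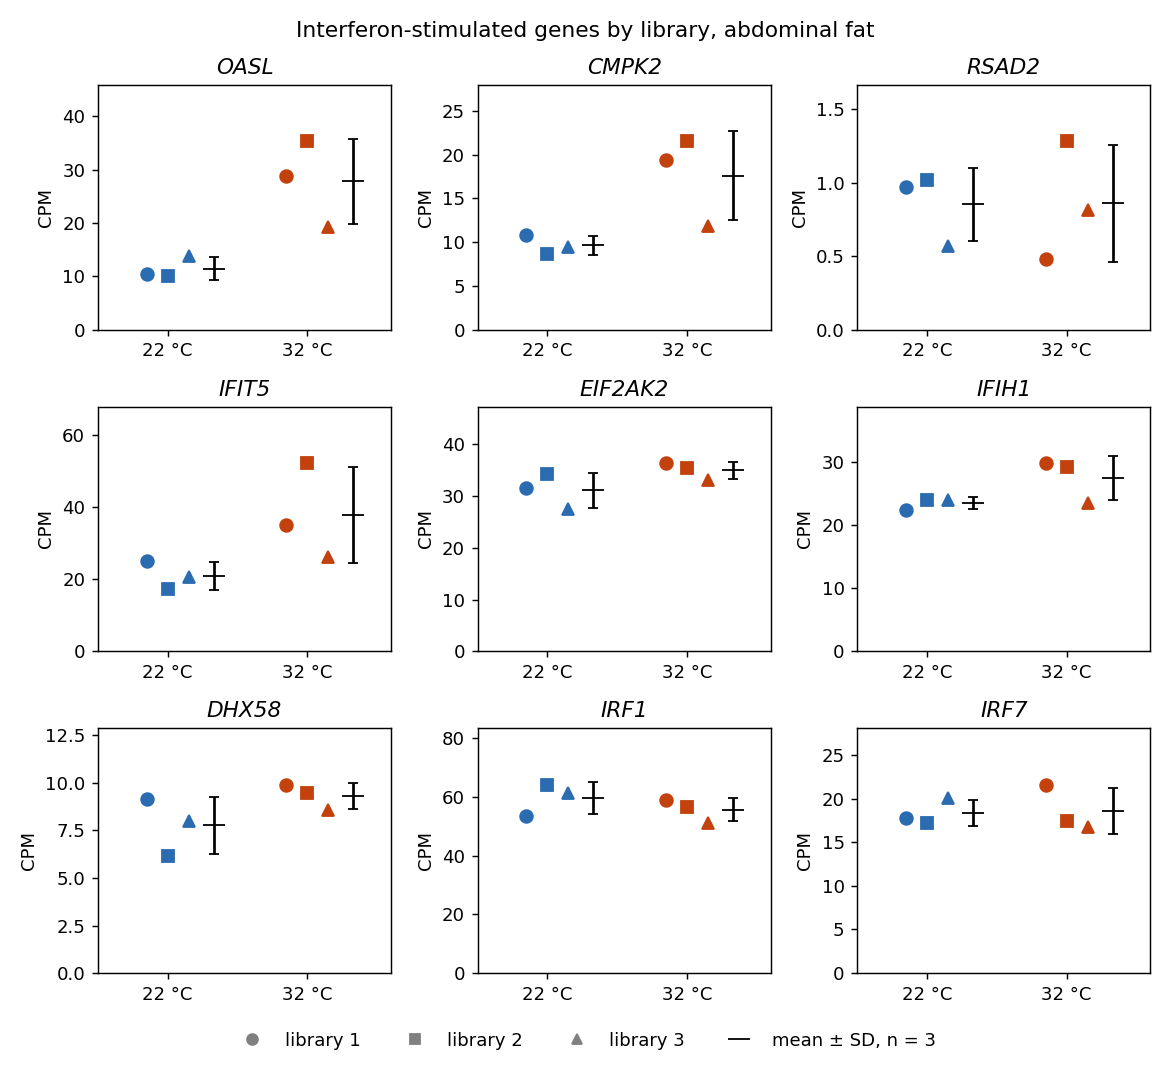
Level of each of the 9 interferon-stimulated genes in CPM (linear axes from 0) in the 3 libraries at 22 °C and the 3 at 32 °C, with a different symbol for each library number and the mean ± SD beside them. OASL, CMPK2 and IFIT5 show no overlap between groups, and heat stress 3 is the lowest heat stress library in all panels but that of RSAD2.

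Helicases that sense double-stranded RNA make up the next pair of members. IFIH1 (gene ID 424185), the cytosolic helicase MDA5 that senses long viral RNA and signals through MAVS, was at 22.5, 24.0 and 24.1 CPM in thermoneutral fat and at 29.9, 29.2 and 23.5 CPM in heat-stressed fat. Heat stress 1 and 2 stood above all thermoneutral libraries and heat stress 3 stood among them. IFIH1 had a log2 fold change of 0.23 ± 0.12 (interval -0.06 to 0.51, edgeR FDR 0.365). DHX58 (gene ID 100858653), which encodes LGP2, a helicase without the signalling domains of IFIH1 that assists it, was at 9.14, 6.18 and 8.02 CPM and at 9.91, 9.48 and 8.57 CPM. Only heat stress 3 fell inside the thermoneutral range, whose lowest library was thermoneutral 2. DHX58 had a log2 fold change of 0.26 ± 0.19 (interval -0.18 to 0.70, edgeR FDR 0.502), and it was 0.11 without thermoneutral 2.

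Both transcription factors overlapped between groups. IRF1 (gene ID 396384), an activator that responds strongly to interferon gamma, was at 53.5, 64.2 and 61.4 CPM in thermoneutral fat and at 59.02, 56.5 and 51.3 CPM in heat-stressed fat. It was the single member with a negative log2 fold change, -0.10 ± 0.10 (interval -0.34 to 0.13, edgeR FDR 0.631), and on log2(TPM + 1) its difference was 0.01. IRF7 (gene ID 396330), the factor that drives type I interferon genes, was at 17.8, 17.2 and 20.1 CPM and at 21.6, 17.4 and 16.7 CPM. Heat stress libraries were both the highest and the lowest for IRF7, and its log2 fold change was 0.01 ± 0.14 (interval -0.31 to 0.34, edgeR FDR 0.967). In the GRCg7b annotation IRF7 overlaps the long non-coding RNA LOC121113257, and without a known strand setting the reads of the pair cannot be told apart. Within a library, the ratio of OASL to IRF7 in TPM was 0.717, 0.746 and 0.891 in thermoneutral fat. In heat-stressed fat it was 1.67, 2.61 and 1.46, without overlap. IRF7 differed little between groups, so this ratio restates the difference of OASL and is not a separate result.

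Compared per unit of length, IRF1 was the most abundant member in both groups, at 49.9 to 61.2 TPM in thermoneutral and 51.7 to 59.8 TPM in heat-stressed fat. In thermoneutral fat the next were IFIT5 (median 19.5 TPM), EIF2AK2 (19.5), IRF7 (17.1) and OASL (12.7), each of which overlapped its neighbour in this order. IFIH1 (12.1), CMPK2 (5.63), DHX58 (4.03) and RSAD2 (1.74) followed, each apart from the one before it. IFIH1 was only just apart from OASL, as its highest library and the lowest of OASL both round to 12.2 TPM. In heat-stressed fat OASL (37.7) came next by its median, then IFIT5 (35.1), and these overlapped. IFIT5, at 26.2 to 54.0 TPM there, also overlapped IRF1. EIF2AK2 (24.6), IRF7 (18.6), IFIH1 (16.0), CMPK2 (12.2), DHX58 (4.97) and RSAD2 (1.54) followed, with overlap between EIF2AK2 and IRF7 and between IFIH1 and CMPK2. By median TPM, OASL had rank 5 of 9 in thermoneutral fat and rank 2 in heat stress. By mean TPM, IFIT5 was above OASL in heat stress (38.5 against 37.1). The median TPM of IRF1 was at the 84.8th percentile of listed genes and that of RSAD2 at the 22.4th.

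**Figure D2:**
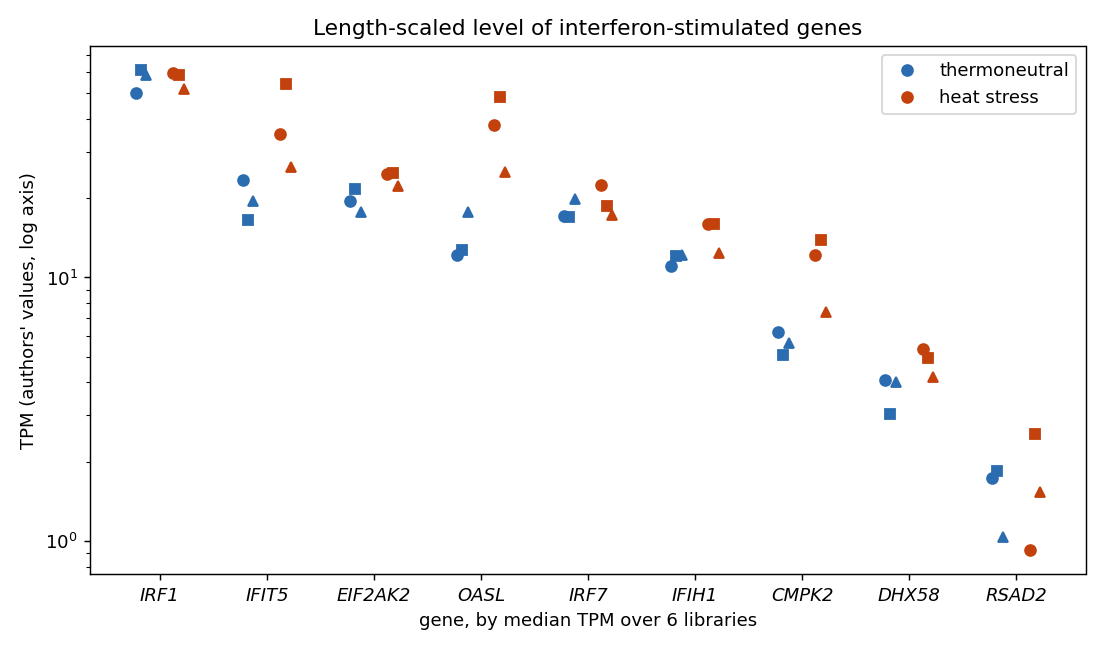
The authors' TPM of the 9 genes in each library on a log axis, ordered by the median over 6 libraries, blue for thermoneutral and orange for heat stress, with circles, squares and triangles for libraries 1, 2 and 3. IRF1 lies near 58.6 TPM in both groups, and OASL has medians of 12.7 TPM in thermoneutral and 37.7 TPM in heat-stressed fat.

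The scale changed how many members separated the groups. On CPM 3 members had no overlap and were higher in heat stress, where 12.6% of all genes did so. On TPM there were 6, with EIF2AK2 (17.7 to 21.7 and 22.3 to 25.0 TPM), IFIH1 (11.1 to 12.2 and 12.4 to 16.0 TPM) and DHX58 (3.05 to 4.07 and 4.19 to 5.35 TPM) added. On that scale 21.3% of all genes were higher without overlap and 6.95% lower, and the median of all genes was 0.08 higher in heat stress on log2(TPM + 1). On FPKM, another length-scaled value of the authors, and on CPM from unscaled library totals, the count was 3, with 13.9% and 14.5% of all genes higher without overlap. Limma on log2(TPM + 1) called 0 of the 9 at an FDR of 0.05 and gave OASL an FDR of 0.0635, while it called 1.25% of all genes higher.

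Among the heat-stressed libraries, the lowest one was mostly the same and the highest one was not. Heat stress 3 was the lowest of the heat stress libraries for 8 of the 9 members, the exception being RSAD2, against 32.7% of all genes tested. Heat stress 2 was the highest of the 6 libraries for OASL, CMPK2, RSAD2 and IFIT5, and heat stress 1 for EIF2AK2, IFIH1, DHX58 and IRF7. The coefficient of variation in heat stress was 28.9% for OASL, 28.8% for CMPK2 and 34.9% for IFIT5, where counting error alone gives 2.88%, 3.62% and 2.47%. In thermoneutral fat it was 18.9%, 11.4% and 18.7%. EIF2AK2 and DHX58 were less variable in heat stress (4.65% and 7.34%) than in thermoneutral fat (10.7% and 19.2%).

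OASL's log2 fold change ran from 1.07 to 1.49 with 1 library left out, that of CMPK2 from 0.70 to 1.09 and that of IFIT5 from 0.55 to 1.06. The low ends were the fits without heat stress 2 and the high ends the fits without heat stress 3. RSAD2 ran from -0.39 without heat stress 2 to 0.31 without heat stress 1, and IRF7 from -0.11 to 0.09. EdgeR's FDR for OASL stayed between 0.0567 and 0.174 over all edgeR alternatives, so OASL did not pass in any of them.

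**Figure D3:**
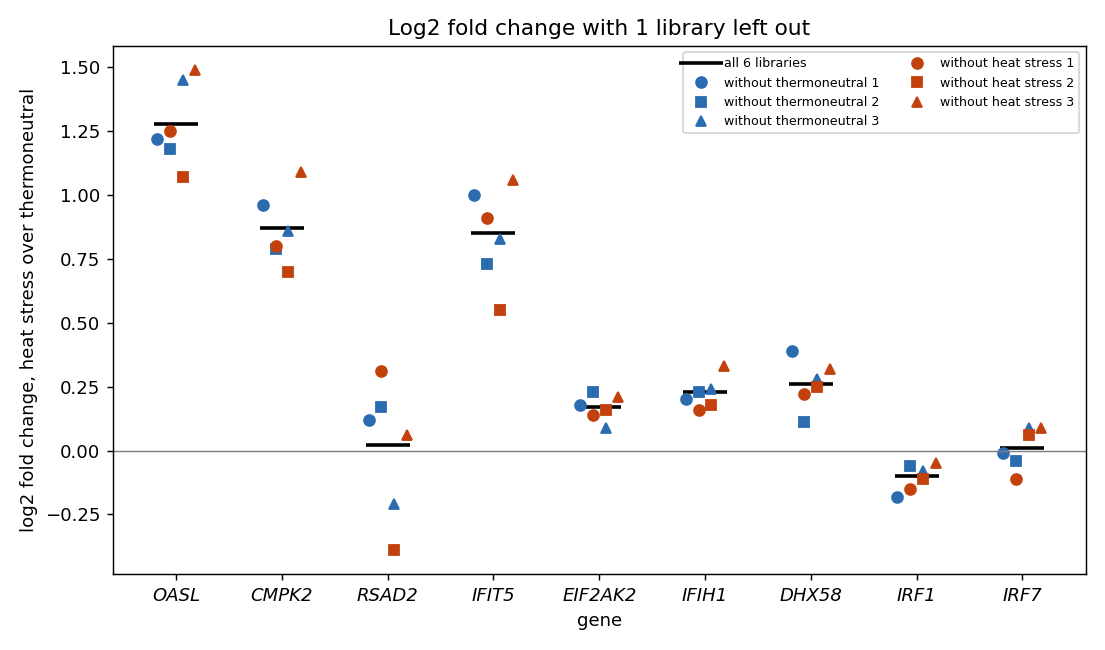
Fitted log2 fold change of each gene with all 6 libraries (black bars) and with 1 library left out (blue symbols for a thermoneutral and orange symbols for a heat stress library). OASL stays at or above 1.07, while RSAD2 and IRF7 lie on both sides of 0.

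Other interferon-stimulated genes lay on both sides of 0. Of 59 tested outside the 9, 0 passed the FDR in edgeR, 7 were higher and 1 lower at an unadjusted p under 0.05, and DESeq2 called 2 higher and 1 lower. Their median log2 fold change was 0.05, with 32 above and 27 below 0. At an unadjusted p under 0.05, 9.56% of all genes were higher and 9.20% lower, and DESeq2 called 5.08% of all genes higher and 4.09% lower.

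MX1 (gene ID 395313), the dynamin-like antiviral GTPase, was at 9.34, 6.81 and 11.5 CPM in thermoneutral fat and at 17.1, 23.5 and 13.7 CPM in heat-stressed fat, with no overlap and with heat stress 2 the highest and heat stress 3 the lowest of its group. MX1 had a log2 fold change of 0.97 ± 0.26 (edgeR FDR 0.118, DESeq2 adjusted p 0.0103). HELZ2 (gene ID 419265), a helicase induced by interferon in mammals, averaged 25.3 ± 2.56 and 38.0 ± 5.73 CPM, also without overlap (log2 fold change 0.59 ± 0.14, edgeR FDR 0.0946, DESeq2 adjusted p 0.00709). ZNFX1, a helicase that senses double-stranded RNA in mice, and IFITM3, a membrane protein that blocks viral entry, did not overlap either, at log2 fold changes of 0.30 ± 0.09 and 0.20 ± 0.08. In all, 8 of the 59 were higher without overlap, near the 12.6% of all genes that were. Only 1 of the 59 was lower without overlap, against 12.4% of all genes. IFITM3 belongs to a family of similar copies, so its count is uncertain.

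IL15, a cytokine that sustains NK and memory T cells, was lower in every heat stress library. It was at 98.9, 74.7 and 104 CPM in thermoneutral fat and at 52.1, 59.6 and 61.1 CPM in heat-stressed fat, a log2 fold change of -0.68 ± 0.14 (edgeR FDR 0.0748, DESeq2 adjusted p 0.00107). IFI6, a small membrane protein, stood at 0.57 ± 0.27, SAMD9L at 0.46 ± 0.36, PARP9, an ADP-ribosyltransferase, at 0.27 ± 0.18 and ZC3HAV1, the zinc-finger antiviral protein, at 0.16 ± 0.11, each with overlapping groups.

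Of the 22 tested genes of nucleic acid sensing outside the members, 0 passed the FDR in edgeR, 2 were higher and 1 lower at an unadjusted p under 0.05, and DESeq2 called 1 higher (median log2 fold change 0.07). These counts are near the shares of all genes, 9.56% higher and 9.20% lower at that p and 5.08% higher in DESeq2. The gene called by DESeq2 was TMEM173, which encodes STING, the adaptor of cytosolic DNA sensing, at 12.6, 10.9 and 10.8 CPM and at 18.4, 14.7 and 16.0 CPM (log2 fold change 0.51 ± 0.14, edgeR FDR 0.118, DESeq2 adjusted p 0.0180). TKFC, an enzyme that restrains MDA5 in mammals, stood at 0.36 ± 0.15 and the adaptor TRADD at -0.25 ± 0.10. MAVS, the adaptor of IFIH1, stood at 0.11 ± 0.15, the ubiquitin ligase TRIM25 at 0.29 ± 0.18 and the endosomal RNA receptors TLR3 and TLR7 at 0.07 ± 0.13 and -0.61 ± 0.26.

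The interferon ligands that were listed were scarce. Beta, omega, kappa and lambda interferon genes were sought by symbol and not matched, so their levels are not known. IFNG (gene ID 396054), the interferon of T and NK cells, had 14, 17 and 21 counts in thermoneutral fat and 8, 4 and 9 in heat-stressed fat. On the CPM scale IFNG did not overlap between groups (0.535 ± 0.0653 and 0.169 ± 0.0756 CPM, log2 fold change -1.66 ± 0.44, edgeR FDR 0.118), and DESeq2 gave no adjusted p. The type I interferon gene IFNAL2, named here after its values were seen, had 2, 8 and 6 counts in thermoneutral fat and 14, 16 and 12 counts in heat-stressed fat (log2 fold change 0.98, with an edgeR unadjusted p of 0.0873). IFNA3, also named after its values were seen, had 1 to 2 and 2 to 5 counts and was not tested. These type I genes belong to a family of near-identical copies, so their counts are uncertain.

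Among 26 tested genes of ligands, receptors and JAK-STAT signalling, 0 passed the FDR in edgeR, 0 were higher and 6 lower at an unadjusted p under 0.05 (9.56% and 9.20% of all genes), and DESeq2 called 3 lower (4.09% of all genes). The 3 were the phosphatases PTPN2 (log2 fold change -0.38 ± 0.08, edgeR FDR 0.0812), PTPN6 (-0.51 ± 0.12, FDR 0.0946) and PTPN1 (-0.32 ± 0.08, FDR 0.118), which switch off Janus kinases and STAT proteins in mammals. In the list as a whole 2 genes were higher and 7 lower without overlap, against 12.6% and 12.4% of all genes, and these phosphatases were among the 7. IFNAR1, a chain of the type I interferon receptor, was at 141, 133 and 123 CPM in thermoneutral fat and at 60.1, 91.6 and 119 CPM in heat-stressed fat (log2 fold change -0.55 ± 0.23, edgeR FDR 0.254). Its partner IFNAR2 stood at -0.06 ± 0.09, and IFNGR1 at -0.18 ± 0.23.

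STAT2, which carries the type I interferon signal to the nucleus, had a log2 fold change of -0.04 ± 0.16. The feedback inhibitors USP18 and SOCS1 stood at 0.35 ± 0.20 and 0.29 ± 0.24. The list's median was 0.02, with 13 genes above and 13 below 0.

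Of 6 other interferon regulatory factors (IRFs) and their partners tested, 4 were below 0, where 50.6% of all genes were, and the median log2 fold change was -0.18. In edgeR 0 of the 6 passed the FDR and 2 were lower at an unadjusted p under 0.05 (9.20% of all genes), and DESeq2 called 1 lower (4.09% of all genes). That gene was IRF8, a factor of myeloid and B cells, at 89.8, 95.6 and 99.0 CPM in thermoneutral fat and at 79.5, 76.5 and 81.0 CPM in heat-stressed fat (log2 fold change -0.26 ± 0.07, edgeR FDR 0.127). IRF4, a factor of lymphocytes, was at 6.97, 14.0 and 3.64 CPM in thermoneutral fat and at 4.76, 2.48 and 2.91 CPM in heat stress, with thermoneutral 2 the highest. Its log2 fold change of -1.28 ± 0.51 was -0.66 without thermoneutral 2. IRF5 and IRF2BP2 stood at -0.21 ± 0.21 and -0.15 ± 0.10.

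**Figure D4:**
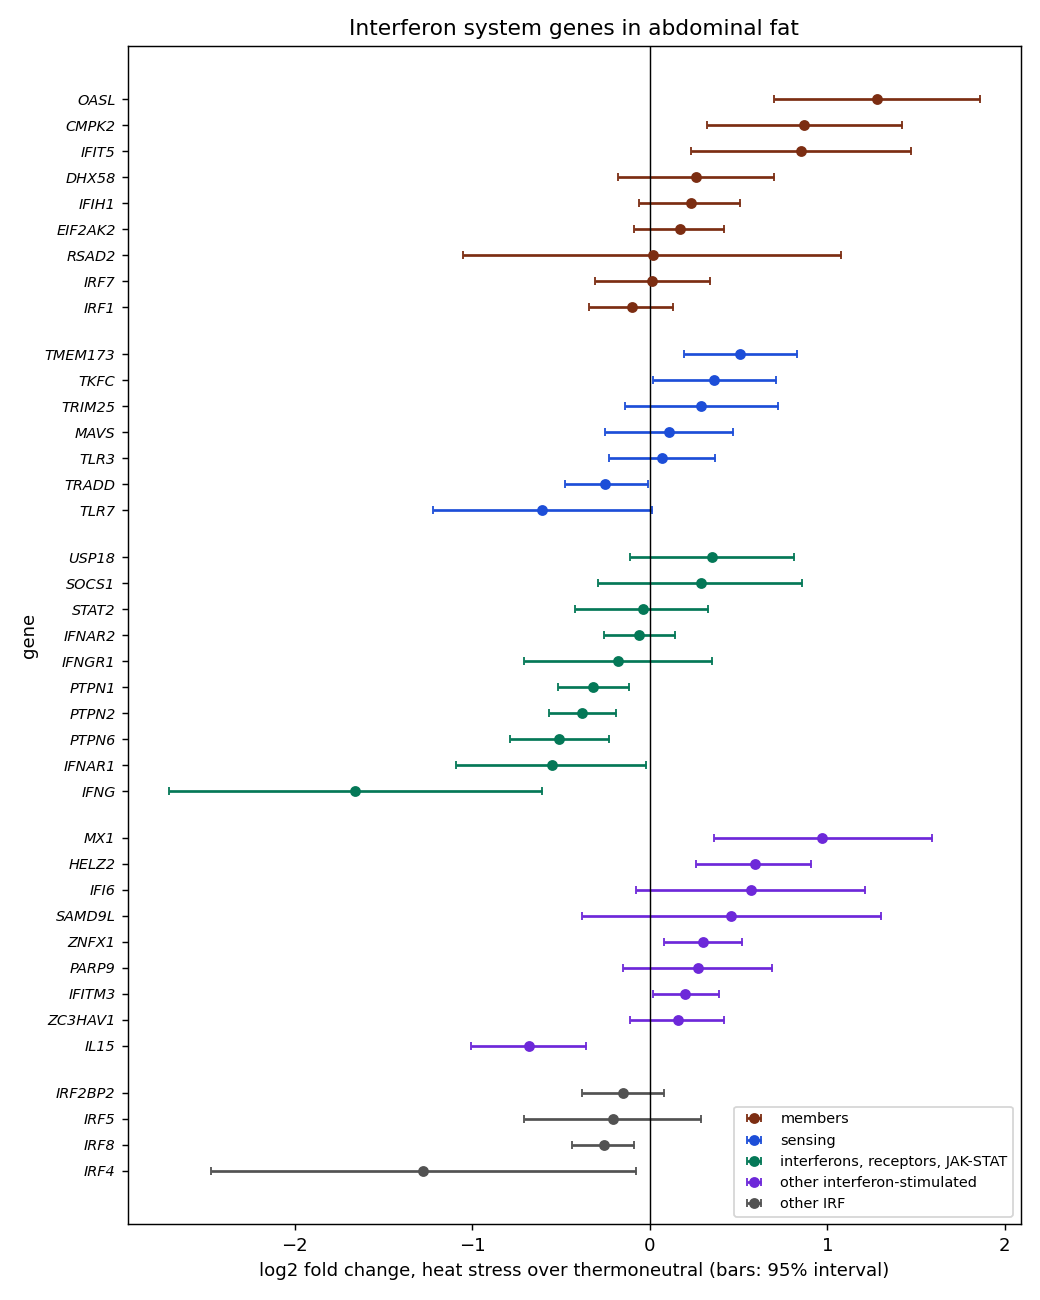
Log2 fold change of heat stress over thermoneutral with its 95% interval for the 9 members (brown) and for named genes of sensing (blue), ligands, receptors and JAK-STAT signalling (green), other interferon-stimulated genes (purple) and other IRF factors (grey). OASL (1.28), MX1 (0.97), CMPK2 (0.87) and IFIT5 (0.85) lie farthest to the right, and IFNG (-1.66) and IRF4 (-1.28, or -0.66 without thermoneutral 2) farthest to the left.

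Markers of several cell classes, immune and not, had mostly negative log2 fold changes. OASL, CMPK2, IFIT5 and MX1, set beside them here, had the highest log2 fold changes of their lists, so their being positive follows from the choice. RSAD2 (0.02), IRF7 (0.01) and IRF1 (-0.10) were near 0, IL15 was at -0.68, and 27 of the 59 other interferon-stimulated genes were below 0. All 16 markers of T and NK cells had negative log2 fold changes, 11 of them at an unadjusted edgeR p under 0.05. At that p 9.20% of all genes were lower and 9.56% higher. The T and NK cell markers summed to 306 to 349 CPM at 22 °C and 191 to 222 CPM at 32 °C. Of the macrophage and dendritic cell markers 16 of 18 were negative, 5 of them at that p. The 18 summed to 5304 to 5556 CPM in thermoneutral fat and to 5436, 3206 and 3719 CPM in heat stress 1, 2 and 3. CD3D among T cell markers and GPR34 among macrophage markers were lower at an edgeR FDR of 0.0476 and 0.0415. Over all genes, 0.0610% were lower at an FDR under 0.05. Of the B and plasma cell markers 7 of 9 were negative, 5 of them at that p. The 9 summed to 128 to 224 CPM in thermoneutral fat and to 137, 32.9 and 37.6 CPM in heat stress 1, 2 and 3. For macrophages and for B cells, the sum of heat stress 1 lay inside the thermoneutral range. A few abundant genes weigh most in these sums, with CD74 at 3934 CPM and JCHAIN at 81.2 CPM in heat stress 1. PAX5, CD79B, JCHAIN, POU2AF1, CXCR5 and TNFRSF13B were lower in every heat stress library, as were 12.4% of all genes. BLNK and CD72 were highest in heat stress 1, and BANK1 overlapped between groups. Fibroblast and preadipocyte markers (6 of 7 negative, 5 of them at an unadjusted edgeR p under 0.05) summed to 11027 to 12363 CPM in thermoneutral and 7464 to 9191 CPM in heat stress libraries. Erythrocyte markers (4 of 4 negative, 3 of them at that p) summed to 366 to 833 and 198 to 347 CPM, and heterophil and thrombocyte markers (6 of 6 negative, 1 of them at that p) to 156 to 384 and 127 to 156 CPM. Endothelial markers (7 of 8 positive, 4 of them at that p) summed to 2226 to 2879 and to 2663 to 3199.6 CPM. Adipocyte markers (6 of 8 positive, with 2 higher and 1 lower at that p) summed to 20515 to 27301 and 22875 to 26177 CPM. Heat stress 2, the highest library for OASL, had the lowest macrophage and B cell sums. Heat stress 3, the lowest heat stress library for OASL, had the lowest T and NK cell sum. Heat stress 1 lay between them for OASL and had the highest sum of the heat stress libraries for each of these immune classes. The part of cell composition in the differences of the members was not tested.

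**Figure D5:**
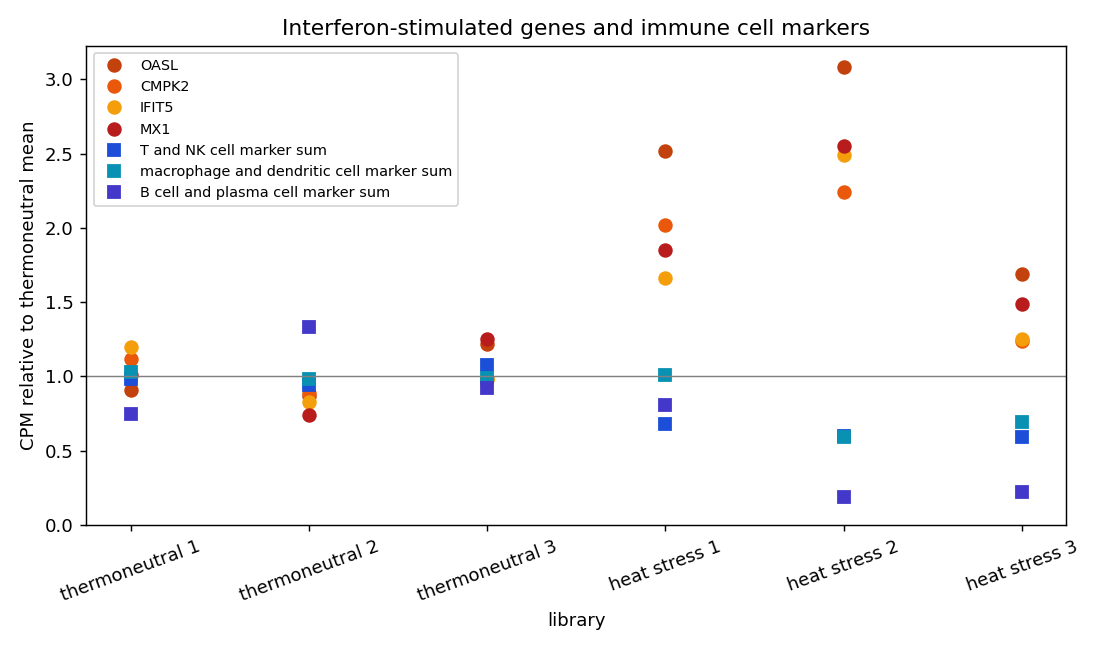
CPM of OASL, CMPK2, IFIT5 and MX1 (circles) and summed CPM of the markers of 3 immune cell classes (squares) in each library, relative to the thermoneutral mean (1). OASL and the B cell sum are at 2.52 and 0.81 in heat stress 1 and at 3.08 and 0.19 in heat stress 2. In heat stress 3 the B cell sum is at 0.22, and the 4 genes lie between 1.24 and 1.69. The 4 genes shown are those with the highest log2 fold changes among the members and the other interferon-stimulated genes tested.

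Each member's log2 CPM was standardized over the 6 libraries, and the mean of the 9 profiles was standardized again. This profile was -0.67, -0.79 and -0.77 in thermoneutral 1, 2 and 3, 1.32 in heat stress 1, highest in heat stress 2 and -0.59 in heat stress 3. CMPK2 and IFIH1 lay closest to this mean profile, with root mean square differences of 0.23 and 0.27 (0 is an identical profile), and IRF1 (1.44) lay farthest from it. Each member is part of this mean, so its difference is not on a par with that of an outside gene. Among other genes with a mean of at least 5 CPM, LOXL2, a lysyl oxidase, was nearest (0.10), followed by the ubiquitin ligase HECTD3 (0.21), GGACT (0.22) and SIPA1L1 (0.26). ZHX1 (0.26), the phosphate exporter XPR1 (0.27), DTX4 (0.28) and ZXDC (0.29) completed the 8 nearest. These 8 genes had log2 fold changes of 0.07 to 0.36, and none is in the lists of interferon genes used here. By the profile of OASL alone, a choice made after values were seen, the 8 nearest included HERC4L (0.15) and HELZ2 (0.23).

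The authors' deposited table gave OASL a fold change of 2.43 with an adjusted p of 7.40e-05, CMPK2 1.83 with 0.0119 and IFIT5 1.80 with 0.0286. The other 6 members had adjusted p-values from 0.374 to 0.990 in the authors' deposited table, where 5.09% of genes with an adjusted p were higher and 4.09% lower at 0.05. OASL was the single member on the authors' shorter list of 742 genes past a 2-fold change. By its name that list was also cut on an unadjusted p, at a limit not given in the sources used here. In the authors' deposited table of 5534 gene ontology terms, 105 terms held OASL, and 8 of those had an adjusted p under 0.05. The share of all terms under 0.05 is not given here. All 8 share OASL, so they are not separate results. In that table the smallest adjusted p of a term with OASL was 0.00807, for the response to cytokine. OASL was among its 28 listed genes, 13 higher and 15 lower. Response to interferon-gamma held 6 listed genes and no member, 4 higher and 2 lower, at an adjusted p of 0.0997 in that table. Defense response to virus held 4 listed genes, OASL among them, of 106 in the term, 2 higher and 2 lower, at an adjusted p of 0.574 in the authors' deposited table.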

How the data were processed

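Per the labels' protocols, TRIzol-extracted RNA went into stranded mRNA libraries. Per the submitters' processing notes, HISAT2 2.1.0, Bowtie2 2.3.4.1, StringTie 2.1.3b and the GRCg6a build were used, their roles and the strand setting being not given in the sources used here. The authors deposited read counts with TPM and FPKM values, signed fold ratios (a score below 0 when lower), p-values and ontology terms, per the file headers. The smallest deposited count is 1, and genes that were at 0 in a library are absent from the table. 36 per-library columns were not used.

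Counts were tested in edgeR 4.0.16 (TMM, filterByExpr, quasi-likelihood F test, group as the only term) with Benjamini-Hochberg adjustment over 14743 genes. SE is the absolute log2 fold change over the square root of F. The fit was tested on simulated data with 200 of the 14743 genes changed in each of 5 runs, where 7.63% of its calls were false. It recovered 5.65% of simulated 1.5-fold changes, 47.1% of 2-fold changes and 78.6% of 4-fold changes. The share of genes that truly differ in these data is not known, so these rates may not hold for them. A gene that does not pass the FDR may still differ. For 1 gene, exactly permuting 3 and 3 libraries allows no p under 0.1. DESeq2 1.42.0, limma 3.58.1 and other filters, scalings and left-out libraries served as alternatives. Within groups, libraries differed beyond counting noise (chi-square over degrees of freedom 34.4 to 98.2).

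Members, lists and tests were chosen with earlier results of these data known. Named genes are the members, the 4 of smallest p in each of 4 lists with no gene past the FDR, 18 genes fixed by name (STING1 stands as TMEM173, and 1 is not reported here), and the 8 nearest profiles. Symbols were sought among the deposited symbols, where all 9 members matched, and otherwise in a GRCg7b gene table. The gene IDs of the 9 members are also in that gene table. GRCg7b is another build, so no coordinates are printed.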

Additional observations from a re-analysis of the deposited data

How the results depend on the processing

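OASL, CMPK2 and IFIT5 kept a positive log2 fold change in the main edgeR fit and in each alternative fit, and passed an adjusted p of 0.05 only in DESeq2. The count of members past it was 3 in DESeq2 and 0 in the others. Over all genes, 17 were higher and 9 lower in the main fit, 749 and 603 in DESeq2, 80 and 19 with library totals, 92 and 41 with a filter of 1 CPM in all 6 libraries (which dropped RSAD2), and 184 and 18 with limma on log2(TPM + 1), an alternative chosen after seeing the data. With the library number as a replicate block the counts were 74 and 21, and the members with a negative log2 fold change went from 1 to 2, as RSAD2 stood at -0.04. The deviations of same-numbered libraries correlated at 0.0784, 0.252 and 0.0356, and not every library correlated best with its own number, so the numbers were not treated as pairs. Leaving out 1 library gave 0 to 24 higher and 3 to 11 lower genes, and 1 to 2 members below 0. The higher count was 0 without thermoneutral 3 and 0 without heat stress 3, 5 without thermoneutral 2 and 3 without heat stress 2. Signs turned with a library left out for RSAD2 (-0.39 to 0.31), IRF7 (-0.11 to 0.09), STAT2 (-0.18 to 0.08) and MAVS (-0.04 to 0.22). On log2(TPM + 1) 0 members were below 0, and the signs of IRF1 (0.01), STAT2 (0.06) and IFNAR2 (0.03) turned, as the median of all genes moved to 0.08. The ligand, receptor and JAK-STAT list then had a median of 0.10 in place of 0.02. On TPM 6 members separated the groups without overlap. The cause was not tested. Low counts limit RSAD2, IFNG and the type I interferons.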
